A study of Homo sapiens with 6 samples.

Results

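The genes described here are 9 immediate early genes and their regulators, namely EGR1, EGR2 and EGR3, the EGR corepressor genes NAB1 and NAB2, the immediate early response genes IER2, IER3 and IER5, and SRF. They were chosen by symbol among 58825 gene identifiers, with their response to EIF5A2 knockdown already known, so the difference between the groups is given for them as a description, with no p-value, and supports nothing further. RNA-seq was performed on SKOV3 cells, a human epithelial ovarian cancer cell line, transfected with a negative control siRNA (NC, 3 libraries) or with si-EIF5A2 (3 libraries) and collected after 48 h. EIF5A2 encodes a translation factor. Both groups went through transfection, no untransfected cells were analysed here, and 1 siRNA against EIF5A2 represents the knockdown. The study's methods say in general that experiments were repeated, but do not say whether the 3 libraries of a group came from separate cultures, so every p-value measures the spread between libraries, which may be technical.

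Immediate early genes are transcribed within minutes of a growth factor, serum or stress signal, without new protein synthesis, and their mRNAs are usually short-lived. The transcription factor SRF binds CArG boxes in many of their promoters together with ETS family partners (ELK1, ELK3, ELK4), which ERK phosphorylates, or with MRTF coactivators, which respond to actin. The EGR proteins are zinc finger transcription factors that bind GC-rich sites, and NAB1 and NAB2 bind the EGR proteins and repress their activity, NAB2 itself being an EGR-induced gene.

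The libraries held 46900204 to 74142267 estimated counts. Levels are given in CPM, the counts of a gene scaled to the library total, and low values lay at multiples of about 3.71 counts, so that 1 sequenced fragment was worth several counts. Where no count was recorded, counting error alone allows a level of 3 fragments, or 0.150 to 0.237 CPM depending on the depth of the library. EIF5A2, the targeted gene, stood at 27.8, 29.8 and 29.9 CPM in NC and at 2.76, 4.04 and 4.27 CPM in si-EIF5A2, a log2 fold change of -2.98 ± 0.18 (SE; edgeR quasi-likelihood test, Benjamini-Hochberg adjusted p = 1.6e-05). Among 8 epithelial and ovarian markers, KRT8, KRT18, ERBB2 and PAX8 were well above the limit, whereas EPCAM was at 1.15 to 1.68 CPM and MUC1 at or near 0. KRT8 and PAX8 fell (log2 fold change -0.69 and -0.80), and all 7 markers tested had a log2 fold change below 0. Among 10 markers of other cell types, PTPRC and CD3E were at 0 in every library, and the sum of the 10 was 42.8 to 60.9 CPM in NC and 29.8 to 59.2 CPM in si-EIF5A2, mostly CD68.

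The promoters of EGR1, EGR2 and SRF are shown because all CArG boxes found upstream of the 9 genes lie in them. The stretches below are from RefSeq (GRCh38.p14), written 5′ to 3′ on the strand of the gene, and the capitals mark the CArG boxes.
EGR1, chr5:138465359-138465420 (plus strand): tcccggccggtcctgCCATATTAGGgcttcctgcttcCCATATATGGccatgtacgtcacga
EGR2, chr10:62816413-62816452 (minus strand): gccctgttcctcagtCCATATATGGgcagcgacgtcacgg
SRF, chr6:43171224-43171268 (plus strand): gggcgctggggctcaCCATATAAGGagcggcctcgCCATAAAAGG
Positions are counted from the start of transcription annotated in RefSeq, with -1 the base before it. The boxes of EGR1 began at -105 and -83, that of EGR2 at -71 from the third of its annotated starts, and those of SRF at -30 and -10 from the first of its starts. These starts are not the GENCODE gene positions given below. The base at -1 is 43171268 for SRF and 138465478 for EGR1, and the GENCODE genes begin at 43171299 and 138465490. The box of EGR2 and the second box of EGR1 have the same letters. Each of these EGR1 and EGR2 stretches also holds TGACG on the opposite strand, the core of the site bound by CREB and ATF proteins.

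Of 35116 windows of 250 bases upstream of annotated starts, searched on both strands, 1.16% held a CArG box and 0.0313% held at least 2. The 9 genes had 12 such windows for 7 genes, and 3 of the 12 held a box. EGR3 and IER3 had no window in the table used. The EGR site GCGGGGGCG, found in 4.72% of all windows, occurred upstream of NAB1, NAB2 and SRF, and the related site GCGTGGGCG, found in 0.72%, occurred upstream of NAB1. The NAB1 matches come as 2 overlapping copies within 1 GC-rich stretch that 2 of its windows share, and GCGGGGGCG overlaps GGGCGG, which 42.6% of windows held. CCGGAA, the core of ETS sites, was found upstream of IER2, IER5 and SRF, against 14.5% of all windows. These matches describe letters in a window and not sites shown to be bound. Across all genes, and with the 9 genes left out, 155 tested genes had a CArG box in a window, of which 17.4% were called higher and 16.1% lower in si-EIF5A2, against 12.2% and 14.9% of the 11171 tested genes with a window. This grouping was chosen after the promoters of the 9 genes had been seen.

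EGR1 was in the lower part of the measured range in NC and among the genes with the greatest difference between the groups. EGR1 (ENSG00000120738; GENCODE 29, chr5:138465490-138469315, plus strand) encodes the EGR family member best known as an early response factor. Its level was 2.08, 1.82 and 1.74 CPM in NC and 55.8, 46.9 and 48.4 CPM in si-EIF5A2. All 3 knockdown libraries were far above all 3 controls and the groups did not overlap. The means were 1.88 ± 0.178 and 50.4 ± 4.81 CPM (SD, n = 3 each), 26.8-fold higher in si-EIF5A2, and the fitted log2 fold change was 4.74 ± 0.13 (SE). Of the 16208 genes that passed the filter on low counts, 14 had a larger log2 fold change, and 25.1% had a lower mean in NC. The estimate ranged from 4.65 to 4.82 when any library was left out.

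EGR2 and EGR3 were at or close to 0 in NC. EGR2 (ENSG00000122877; chr10:62811996-62919900, minus strand), which is known for its role in myelination and hindbrain patterning, had 4, 0 and 0 counts in NC and 47, 44 and 26 counts in si-EIF5A2. Every knockdown library was above every control library, yet the NC counts amount to 1 fragment against 32. The ratio per unit of depth was 40.7 with an exact 95% interval of 6.79 to 1656, which covers counting error only. EGR2 passed the filter on low counts only through the si-EIF5A2 libraries and was chosen with this contrast known. The interval therefore shows how imprecise the ratio is and is no test of a difference. The fitted log2 fold change was 5.11 ± 1.05 (SE). Without NC replicate 1, the NC libraries were all at 0 and the fit gave 8.37, a value that then depends on the prior count. EGR3 (ENSG00000179388) had 0 counts in each NC library and 0, 13 and 8 counts in si-EIF5A2. These are 6 fragments in all, so EGR3 did not pass the filter and no fold change is given. A transcript on the opposite strand, AC055854.1, shares 164 exon bases with EGR3 and had 8 to 27 counts per library, and counting by strand is not stated.

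Per kilobase of exon, EGR1 made up 97.8% to 100% of the summed level of EGR1, EGR2 and EGR3 in the NC libraries and 98.2% to 98.8% in the si-EIF5A2 libraries. EGR4, the remaining gene of the family, had 0 counts in each of the 6 libraries. Nearly all EGR mRNA measured was thus EGR1 in both groups. In NC, however, the shares take 0 counts as a level of 0. A 0 there still allows 0.150 to 0.237 CPM, beside 1.74 to 2.08 CPM of EGR1, so the true NC share may be lower.

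NAB1 and NAB2, the corepressors of the EGR proteins, were both higher in si-EIF5A2. NAB2 (ENSG00000166886; chr12:57088894-57095476, plus strand) was at 19.0, 24.2 and 22.7 CPM in NC and at 70.1, 84.3 and 73.1 CPM in si-EIF5A2. The groups did not overlap, and the log2 fold change was 1.79 ± 0.12 (SE). NAB2 shares 69 exon bases with STAT6 on the opposite strand, which had 5493 to 10631 counts per library against 1068 to 4401 for NAB2. NAB1 (ENSG00000138386; chr2:190646746-190692766, plus strand) was at 6.85, 7.65 and 13.6 CPM in NC and at 22.7, 24.8 and 21.0 CPM in si-EIF5A2. NC replicate 3 stood apart at 1.87 times the mean of the other NC libraries but remained below all knockdown libraries. The log2 fold change was 1.29 ± 0.26 (SE) and reached 1.65 without NC replicate 3. AC006460.2, a noncoding RNA that starts from the promoter of NAB1 in the other direction, had 0 counts in each NC library and 56, 36 and 29 counts in si-EIF5A2. It was picked with these values in view.

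NAB2 made up 73.1% to 83.7% of the summed NAB level per kilobase in NC and 83.4% to 85.0% in si-EIF5A2, ranges that overlap. The ratio of EGR1 to NAB1 plus NAB2, both per kilobase, was 0.0538 to 0.0862 in NC and 0.452 to 0.637 in si-EIF5A2. The summed NAB level was above that of EGR1 in every library, and the ratio was closer to 1 in si-EIF5A2.

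The genes IER2, IER3 and IER5 were abundant in both groups and differed less. IER5L, which is outside the 9 genes, was at 15.8 to 20.7 CPM in NC and lower in si-EIF5A2, at 8.78 to 10.3 CPM (log2 fold change -0.91 ± 0.14 SE). IER3 (ENSG00000137331; chr6:30743199-30744554, minus strand), which encodes a stress-inducible protein linked to cell survival, was at 118, 111 and 103 CPM in NC and at 207, 218 and 199 CPM in si-EIF5A2. The groups did not overlap, with a log2 fold change of 0.91 ± 0.08 (SE). IER3-AS1 shares 359 exon bases on the opposite strand and had 0 to 26 counts. IER5 (ENSG00000162783; chr1:181088712-181092899, plus strand), whose product is known to act on the heat shock factor HSF1, was at 86.1, 87.7 and 90.0 CPM in NC and at 126.5, 132.9 and 139.6 CPM in si-EIF5A2. The log2 fold change of 0.60 ± 0.07 (SE) lay just past the limit of 1.5-fold, and it fell short of that limit without NC replicate 1 (0.58), without si-EIF5A2 replicate 3 (0.56) or with no filter on low counts (0.57).

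The difference in IER2 rested mostly on 1 library. IER2 (ENSG00000160888; chr19:13150415-13154908, plus strand), a nuclear protein gene induced by growth factors, was at 204, 169 and 17.9 CPM in NC and at 219, 244 and 237 CPM in si-EIF5A2. NC replicate 3 held 9.59% of the mean of the other NC libraries. AC011446.2 shares 946 exon bases with IER2 on the opposite strand and had 0 to 37 counts per library, against 841 to 14911 for IER2. The log2 fold change was 0.84 ± 0.85 (SE) with all libraries and 0.31 without NC replicate 3. The mean of si-EIF5A2 was 1.25 times that of NC replicates 1 and 2. Of 8844 genes averaging 10 CPM or more, 11 were more than 5 times lower in NC replicate 3 than in both other NC libraries, and the same count ranged from 4 to 15 over the 6 libraries.

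SRF differed between the groups by less than the spread of the libraries. SRF (ENSG00000112658; chr6:43171299-43181507, plus strand) was at 89.6, 88.7 and 79.7 CPM in NC and at 88.2, 94.5 and 88.1 CPM in si-EIF5A2. The ranges overlapped, and the log2 fold change was 0.07 ± 0.08 (SE).

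Calls required a difference of more than 1.5-fold together with a Benjamini-Hochberg adjusted p below 0.05 in edgeR. Of the 8 genes that passed the filter, 6 were past these limits, all higher in si-EIF5A2 (EGR1, EGR2, IER3, IER5, NAB1 and NAB2), where 24.6% of all 16208 genes were called, 11.1% higher and 13.6% lower. In 7 of the 8 the ranges of the groups did not overlap, as in 51.2% of all genes. Nothing is read from these counts, because the genes were selected on the same contrast and EGR2 passed the filter only through the si-EIF5A2 libraries.

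**Figure D1:**
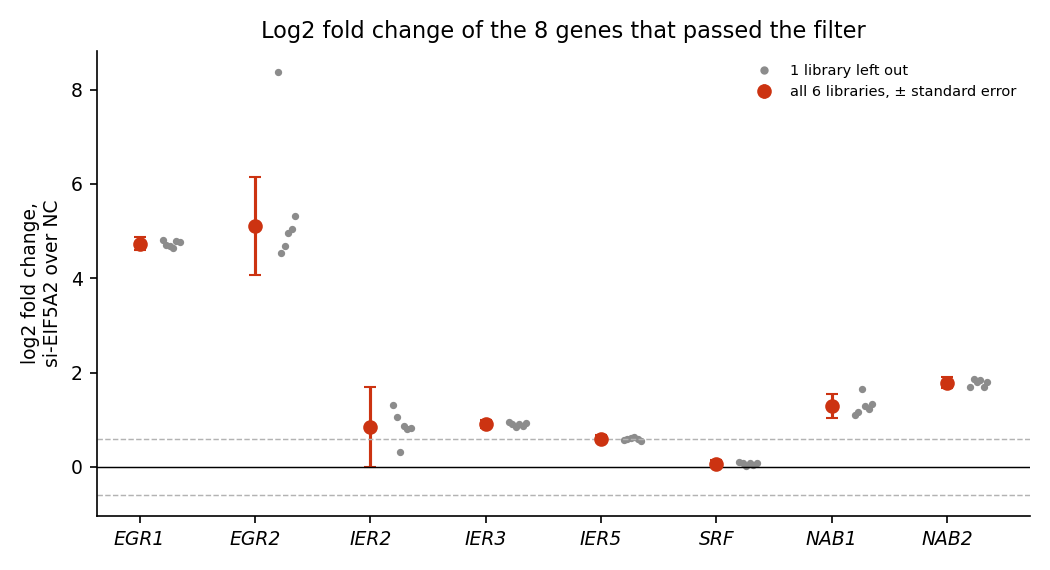
Log2 fold change of si-EIF5A2 over NC for the 8 genes that passed the filter on low counts (y axis), with the standard error as bars, and the value with each library left out as grey points. Dashed lines mark a 1.5-fold difference. EGR2 and IER2 have the widest errors, 1.05 and 0.85, and each moves most with 1 NC library left out.

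The order of the mean levels per kilobase of exon differed between the groups. In NC, IER3 was at 81.5 CPM per kilobase, followed by IER2 at 42.4, IER5 at 21.0, SRF at 20.5, NAB2 at 7.30, NAB1 at 1.92, EGR1 at 0.600 and EGR2 at 0.00495. IER5 and SRF did not differ beyond their spread in NC, and the range of IER2, from 5.82 to 66.5, covered IER5, SRF and NAB2. In si-EIF5A2, IER3 was at 153.4, IER2 at 75.9, IER5 at 31.8, NAB2 at 25.2, SRF at 21.5, EGR1 at 16.1, NAB1 at 4.67 and EGR2 at 0.208 CPM per kilobase, and no neighbouring ranges overlapped. EGR1 thus stood below NAB1 in NC and above it in si-EIF5A2, and NAB2 stood below SRF in NC and above it in si-EIF5A2.

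**Figure D2:**
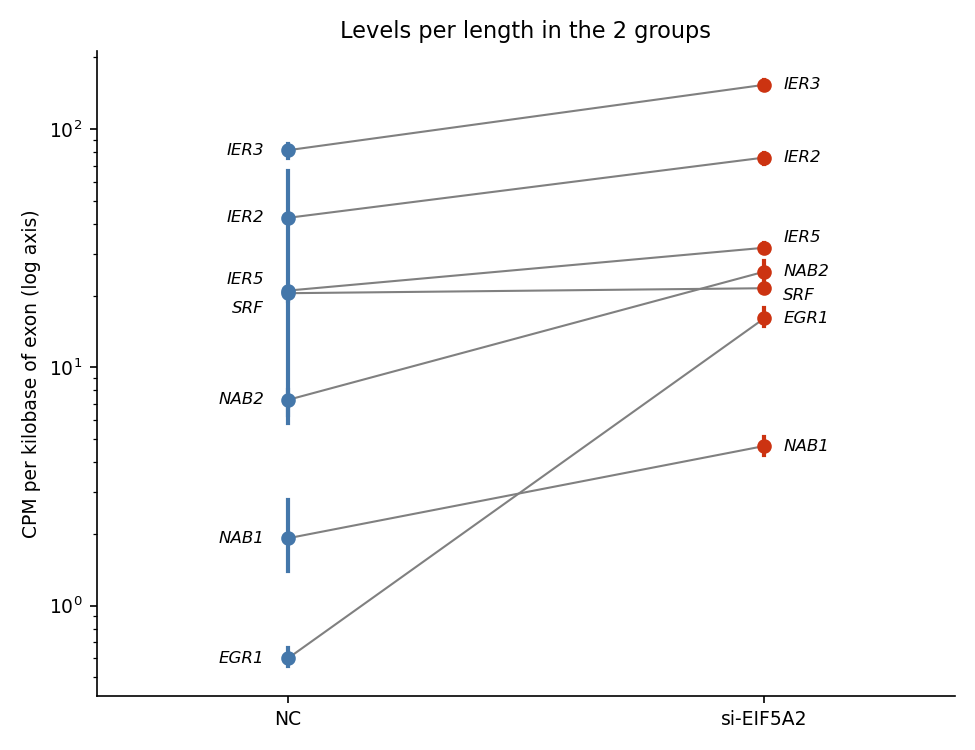
Mean level per kilobase of exon of 7 genes in NC and si-EIF5A2 (y axis, CPM per kilobase on a log axis), with vertical bars from the lowest to the highest library. EGR2 and EGR3, at 0 in most NC libraries, are left out. The lines of EGR1 and NAB1 cross, as do those of NAB2 and SRF.

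Most of the 9 genes have few exons. In 6 of them the longest coding transcript has at most 2 exons, as in 7.69% of 12791 protein-coding genes tested. The other genes are SRF and NAB2 with 7 exons each and NAB1 with 10. The annotated span was at most 10209 bases except in NAB1 (46021 bases) and EGR2 (107905 bases), against a median of 33326 bases over the protein-coding genes. TATTTAT, the core of AU-rich elements that mark short-lived mRNAs, occurred in the 3′ UTR of IER3, IER5, SRF, NAB1 and NAB2, 5 of 9 genes, and in 35.5% of the protein-coding genes. EGR1, EGR2, EGR3 and IER2 held none. A longer 3′ UTR has more room for a match, and the shares were not adjusted for length. The 3′ UTRs of IER5 (3013 bases), NAB1 (2433) and SRF (2317) were longer than the median of 1309 bases. Those of IER3 (903) and NAB2 (755) were shorter, and that of EGR3, without a match, had 2814 bases.

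Many other immediate early genes rose with the knockdown. Of 40 listed genes, 39 were tested, 17 rose and 4 fell, which is 53.8% called against 24.6% of all genes, with a median log2 fold change of 0.65 against -0.01 for all genes tested. DUSP5, a nuclear ERK phosphatase gene, rose from 223 to 231 CPM in NC to 647 to 696 CPM in si-EIF5A2 (log2 fold change 1.55 ± 0.07 SE, edgeR adjusted p = 5.45e-06). BTG2, an antiproliferative gene, rose by 1.32 ± 0.12 and NFKBIZ, a regulator of NF-kappaB target genes, by 1.17 ± 0.12. ARC (-1.31 ± 0.13), FOSL1 (-1.08 ± 0.08), which encodes the AP-1 subunit FRA1, and CCN2 (-0.92 ± 0.07), a matricellular gene known as a YAP and SRF target, fell.

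FOS and FOSB, AP-1 subunit genes that share the SRF-dependent control of EGR1, were low in NC, as was the nuclear receptor gene NR4A1. These genes, JUN, JUNB, JUND and MYC are outside the rule for named genes and were picked with their values in view. FOS was at 1.38, 1.21 and 1.96 CPM in NC and at 9.58, 11.1 and 6.84 CPM in si-EIF5A2. FOSB was at 0.233, 0.226 and 0.425 CPM in NC and at 1.88, 2.70 and 2.61 CPM in si-EIF5A2, and NR4A1 was at 1.88, 2.65 and 1.83 CPM against 9.78, 8.76 and 10.3 CPM. All of them rose, by 2.60 ± 0.26 for FOS, 3.04 ± 0.38 for FOSB and 2.18 ± 0.20 for NR4A1 on the log2 scale. Other genes of these families, FOSL2 (0.29 ± 0.06), NR4A2 (0.70 ± 0.78) and NR4A3 (0.98 ± 0.47), were not called, and FOSL1 fell. Of the JUN genes, whose products pair with FOS proteins in AP-1, JUNB (0.69 ± 0.11) and JUND (0.73 ± 0.17) rose, although JUND was not called once NC replicate 3 was dropped (0.66). JUN, at -0.57 ± 0.07 (log2; edgeR adjusted p = 0.000387), was short of the fold limit, but was past it and called lower (-0.60 each time) if NC replicate 3 or si-EIF5A2 replicate 3 was dropped or if low counts were not filtered. MYC was at 174.7 CPM in si-EIF5A2 replicate 1 and at 12.7 to 15.5 CPM in each of the other libraries, and was not called (edgeR adjusted p = 0.214).

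Of the factors that act on immediate early promoters, 10 of 11 listed genes were tested and 3 were called, which is 30.0% against 24.6% of all genes. ATF1, which binds CREB sites, rose by 0.95 ± 0.10 (edgeR adjusted p = 0.000265), and ELK4, an ETS partner of SRF, rose by 0.92 ± 0.18 (adjusted p = 0.00553). MRTFB, an actin-regulated SRF coactivator named here although its mean was under 10 CPM, fell from 6.59, 9.42 and 7.89 CPM in NC to 1.98, 4.12 and 2.04 CPM in si-EIF5A2 (log2 fold change -1.55 ± 0.31, adjusted p = 0.00628). The list had a median log2 fold change of 0.07.

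The ERK cascade, which signals to the ETS partners, had 4 of 23 genes called, 17.4% against 24.6% of all genes. RPS6KA3 (0.69 ± 0.14) and BRAF (0.68 ± 0.14) rose, and MAPK3 (-0.65 ± 0.11), which encodes ERK1, and RPS6KA5 (-1.34 ± 0.27) fell. RPS6KA5, which encodes the kinase MSK1, had a mean under 10 CPM and is outside the rule for named genes. Without si-EIF5A2 replicate 1, 1 gene of the list, RPS6KA5, was called, and without NC replicate 3 there were 6. These are mRNA levels and do not measure ERK activity.

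Cytoskeletal genes controlled by SRF and MRTF went both ways. Of 26 listed, 24 were tested, 5 rose and 3 fell (33.3% called against 24.6% of all genes, median log2 fold change 0.13). Over all genes tested, 11.1% were called higher and 13.6% lower. TPM4 (1.78 ± 0.11), ACTA2 (1.42 ± 0.09) and FHL2 (1.07 ± 0.08) rose, and VCL (-1.35 ± 0.08), TGFB1I1 (-0.82 ± 0.14) and TLN1 (-0.63 ± 0.08) fell. VCL and TLN1 encode vinculin and talin of focal adhesions. TLN1 was short of the fold limit without NC replicate 2 (-0.57).

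Known EGR1 target genes were likewise divided. Of 16 listed, 15 were tested, 5 rose and 2 fell, with a median log2 fold change of 0.21. That is 46.7% called against 24.6% of all genes (11.1% higher and 13.6% lower). FN1, the fibronectin gene, rose from 132 to 147 CPM in NC to 545 to 655 CPM in si-EIF5A2 (2.06 ± 0.09, edgeR adjusted p = 6.5e-06). ICAM1, an adhesion receptor gene, rose by 1.78 ± 0.09. The genes that fell, HPSE (-1.40 ± 0.25) and PDGFB (-0.70 ± 0.21), had means under 10 CPM and are outside the rule for named genes. PDGFB was not called when any library other than NC replicate 2 was left out, nor with the replicate number as a block.

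HSF1 and its chaperone targets, listed because of the link between IER5 and HSF1, had 9 of 11 genes called (81.8% against 24.6% of all genes), 8 higher and 1 lower, with a median log2 fold change of 0.90. HSP90AA1, the inducible HSP90 gene, rose from 705, 740 and 809 CPM in NC to 2074, 1985 and 2026 CPM in si-EIF5A2 (1.43 ± 0.07, edgeR adjusted p = 9e-06). HSPA1A and HSPA1B rose by 1.35 ± 0.15 and 1.22 ± 0.12, but they are near-identical copies whose reads may have been split between them. BAG3, an HSP70 cochaperone gene, fell (-0.77 ± 0.11). HSF1 itself was at 139 to 154 CPM in NC and at 128 to 158 CPM in si-EIF5A2, and was not called (-0.06 ± 0.10).

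**Figure D3:**
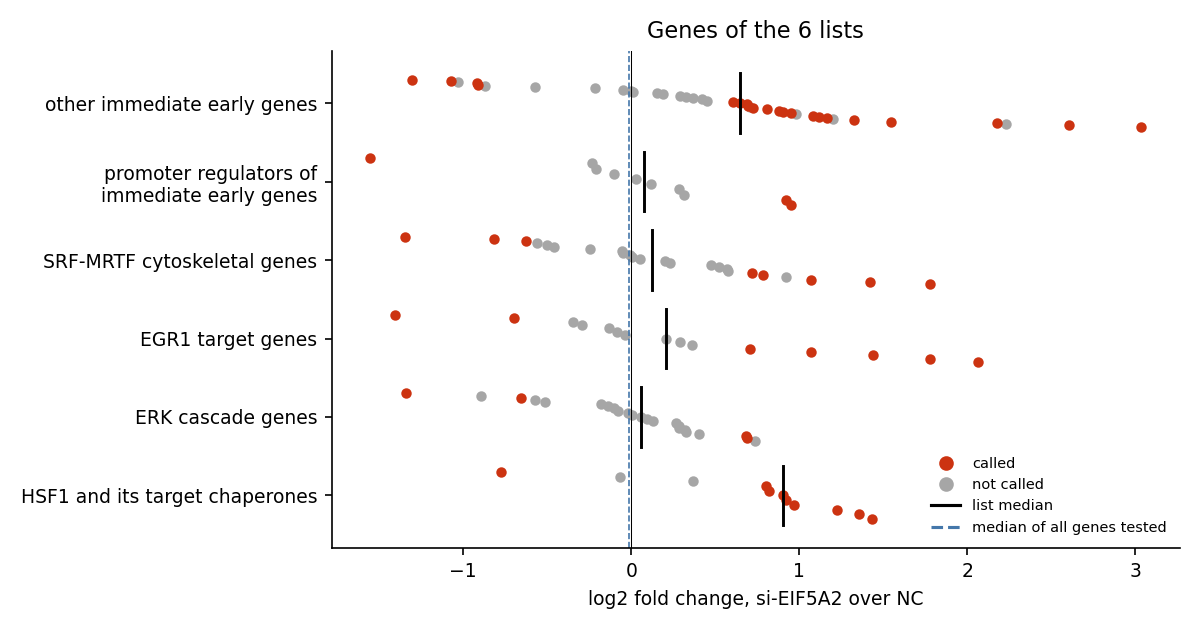
Log2 fold change of si-EIF5A2 over NC (x axis) of every tested gene in 6 lists, with called genes in red, other genes in grey, the list median as a black line and the median of all genes tested as a dashed line. The medians of the other immediate early genes (0.65) and of HSF1 and its target chaperones (0.90) lie farthest to the right.

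Of 8837 genes averaging 10 CPM or more, the 9 genes left out, those whose profile over the 6 libraries was most like that of EGR1 were ANGPTL4, TNFSF15, TMEM200A, CXCL8 and SERPINB7. The measure was the root mean square difference of log2 CPM centred on the mean of each gene, which was 0.325 for ANGPTL4, a secreted inhibitor of lipoprotein lipase, and 0.774, 0.803, 0.814 and 0.848 for the others in that order. ANGPTL4 was at 3.26, 3.73 and 3.60 CPM in NC and at 59.3, 88.1 and 75.3 CPM in si-EIF5A2. CXCL8, a chemokine gene, was at 41.5, 44.1 and 40.9 CPM against 378, 374 and 336 CPM. With 2 groups, the measure mostly ranks genes by how close their difference between the groups is to that of EGR1.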

How the data were processed

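Total RNA of SKOV3 cells transfected with NC or si-EIF5A2 siRNA was sequenced as paired-end mRNA libraries, 3 per group. The groups and replicate numbers came from the sample labels, and the time of 48 h from the description of the series. The authors used StringTie and ballgown, and deposited a whole-number estimated count for each gene and library, without normalization or pooling. StringTie counts scale with read length and coverage, so 1 fragment is worth more than 1 count, and fragments of overlapping genes may be shared between them. The aligner and genome build are not given in the paper, and the submitters' processing notes name mouse builds, which cannot apply to a human cell line. Of 58825 identifiers, 58552 were found in GENCODE 29 (GRCh38), which gave positions, exon lengths and 3′ UTRs, and 58472 had a symbol. Promoter sequence was taken from RefSeq (GRCh38.p14) and matched 7 of the 9 genes.

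edgeR 4.0.16 in R 4.3.3 was fitted to all 6 libraries (filterByExpr with a minimum of 10 counts, TMM, robust quasi-likelihood test, Benjamini-Hochberg adjustment over 16208 genes; biological coefficient of variation 0.261). CPM used the TMM library sizes. Standard errors were derived from the log2 fold change and its quasi-likelihood F statistic. Exon length was the union of all exons of a gene. The edgeR and DESeq2 fits were tested on simulated counts, which lacked the step of 3.71 counts. The other steps were not simulated.

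The 9 genes and the gene lists were chosen with earlier results of these data known. From each of 6 lists, the 3 called genes with the largest rise and the 3 with the largest fall and a mean of at least 10 CPM were named, as were the 5 genes most like EGR1. Some genes under this rule are not reported here. The other alternatives were DESeq2 1.42.0, RLE or library-size normalization, no filter, a minimum of 10 counts in all libraries, a block on the replicate number, counts divided by 3.71, other thresholds, and leaving out each library.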

Additional observations from a re-analysis of the deposited data

How the results depend on the processing

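Each call rests on 3 libraries per group at 46900204 to 74142267 estimated counts, and genes of a few fragments, such as EGR2 and EGR3, are limited by depth. The main calls followed the limits in the legend of the study's cluster map (more than 1.5-fold, adjusted p below 0.05). The study's methods state other limits, p below 0.05 without adjustment and a difference of more than 2-fold. With the limits of the methods, 2370 genes were called in place of 3992. They held 11 of the other immediate early genes (21), 1 promoter regulator (3), 4 SRF-MRTF cytoskeletal genes (8), 1 ERK cascade gene (4) and 3 of HSF1 and its chaperones (9). The limits of the methods are looser on p and stricter on fold change, so only the fold limit can lower a count. With the adjusted p alone, 14 cytoskeletal genes and 8 ERK cascade genes were called, since no fold limit applied. The count for the ERK cascade ranged from 1 to 6 with 1 library left out. The log2 fold change of MYC, 2.23 with all libraries, ranged from -0.053 without si-EIF5A2 replicate 1, the library that alone held its high value, to 2.711 without si-EIF5A2 replicate 2. The number of the 9 genes past the limits was 6 with DESeq2, RLE and library-size normalization, and 4 with the limits of the methods. It was 5 without a filter, where IER5 fell short of the fold limit. With at least 10 counts in every library or counts divided by the step, EGR2 was no longer tested, and the number was also 5. The replicate numbers did not pair the libraries (correlation of same-numbered deviations -0.024 to 0.005). With the replicate block, 3731 genes were called, and 6 of the 9 genes described were past the limits.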
